A study of Mus musculus with 1 sample.

Results

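The genes described here are the core machinery of macroautophagy, 40 mouse genes chosen by name for their role in starting an autophagosome, feeding it with lipid, building it and loading it with cargo, out of 23282 gene rows in the expression table. A row was found for each of the 40 genes, 39 under the current symbol and Rubcn under the older RefSeq symbol 1700021K19Rik. The study asked how inhibition of the serum- and glucocorticoid-regulated kinase SGK1 changes brain glia in models of Parkinson disease. The library analysed here is 1 control culture of mixed glia (GFAP+ astrocytes with IBA1+ microglia, a primary culture and not a purified cell type) from the ventral midbrain (VM) of ICR(CD-1) outbred mouse pups at postnatal day 5, grown in serum-containing medium. The study describes the control as treated with the solvent DMSO. The labels do not say whether this culture also received the toxins named in the treatment protocol, how many pups were pooled, or a genotype. Cultures given the SGK1 inhibitor GSK650394 were not analysed here, so every value below is a level in 1 library, with no replicate, no error and no test.

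Autophagy delivers cytoplasm to the lysosome. A kinase complex built around ULK1 or ULK2 responds to nutrient signals, a lipid kinase complex marks the site of membrane growth, and a pair of ubiquitin-like conjugation reactions fixes proteins of the ATG8 family (LC3 and GABARAP) to the membrane, where receptors such as p62 tether damaged organelles, protein aggregates or other cargo. In astrocytes and microglia the pathway is known for clearing damaged mitochondria and engulfed material.

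The ATG8 proteins become able to join a membrane only after ATG4 proteases cut them behind a C-terminal glycine, and cargo receptors hold them through a short motif called the LC3-interacting region. These sites are shown because Sqstm1, Nbr1 and Gabarap, the highest of the 40 genes, encode proteins that carry them. Optn is printed as a further receptor, although its level was the lowest of the receptors. The receptors Tax1bp1 and Calcoco1 are not printed. The coding sequences come from GENCODE M21 transcripts on mouse GRCm38 and are written 5′ to 3′ on the coding strand. In 4 of the ATG8 genes, capitals mark the codon of the last glycine.
Map1lc3a: gcctcccaagaaaccttcGGCttctga
Gabarap: agtgatgaaagcgtctatGGTctgtga
Gabarapl1: agtgatgaaagtgtctatGGAaaatga
Gabarapl2: agcggagagaacacttttGGCttctga
The glycine is codon 120 of 121 in Map1lc3a and codon 116 of 117 in Gabarap, Gabarapl1 and Gabarapl2, so each of these 4 genes has 1 codon behind the cut. In the receptors, capitals mark the codons of the aromatic and the hydrophobic residue that anchor the LC3-interacting region.
Sqstm1: gacgatgacTGGacacatTTGtcttcaaaa
Nbr1: tctgaagatTATatcatcATCcttcctgag
Optn: gaagactccTTCgttgagATCaggatgacc
The aromatic residue is codon 340 of 442 in Sqstm1, codon 750 of 988 in Nbr1 and codon 188 of 584 in Optn. Between whole coding sequences, Map1lc3a and Map1lc3b shared 76.5% of bases and Gabarap and Gabarapl1 74.9%, while LC3 and GABARAP genes shared 51.4% to 55.4%.

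All 40 genes were detected, which here means a normalised read count of 10 or more, against 67.2% of all rows (15648 of 23282). Their normalised read counts ran from 16 for Atg9b to 22302 for Sqstm1 with a median of 1008, and the median of all detected genes was 469. Above that median lay 34 of the 40 genes, against 33.6% of all rows. The 6 genes below it were Atg4d, Atg4a, Atg14, Atg16l2, Atg10 and Atg9b. Together the 40 genes held 0.330% of the summed counts of the library, and Sqstm1 alone held 24.5% of that part. A count of 1000 or more was reached by 20 of the 40 genes (50%), against 21.5% of all rows.

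A longer transcript can give more reads from the same number of molecules, so levels of different genes are compared below after division by the length of all annotated exons of the gene in kilobases and by the summed counts in units of 1000000, called the length-scaled level. Its median was 6.97 over the 40 genes, with quartiles of 3.48 and 19.2, and 3.72 over the detected genes that have a length. On this scale 29 of the 40 genes lay above the median of detected genes, against 33.8% of rows with a length. The 11 genes below it were Rb1cc1, Pik3r4, Atg14, Uvrag, Atg2b, Atg9a, Atg9b, Atg16l1, Atg16l2, Atg4b and Atg4d. The 40 genes are longer than most (median exon length 5870 bases, against 4252 bases over detected genes), and 13 of them dropped by more than 10 percentage points in the order of detected genes after scaling, while 4 (Atg101, Atg10, Map1lc3a and Atg4a) climbed by more than 10. In these values the rank correlation of count with exon length was weak, at rho = -0.13 over the 40 genes and 0.16 over detected genes (across genes of 1 library, a description), and whether the deposited scaling already takes length into account is not given in the sources used here. If it does, the comparisons of counts apply in place of the length-scaled ones. The choice of length moves single genes, so 2 other lengths are given where they matter, the longest transcript and the principal transcript (the isoform that GENCODE marks as the main one).

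**Figure D1:**
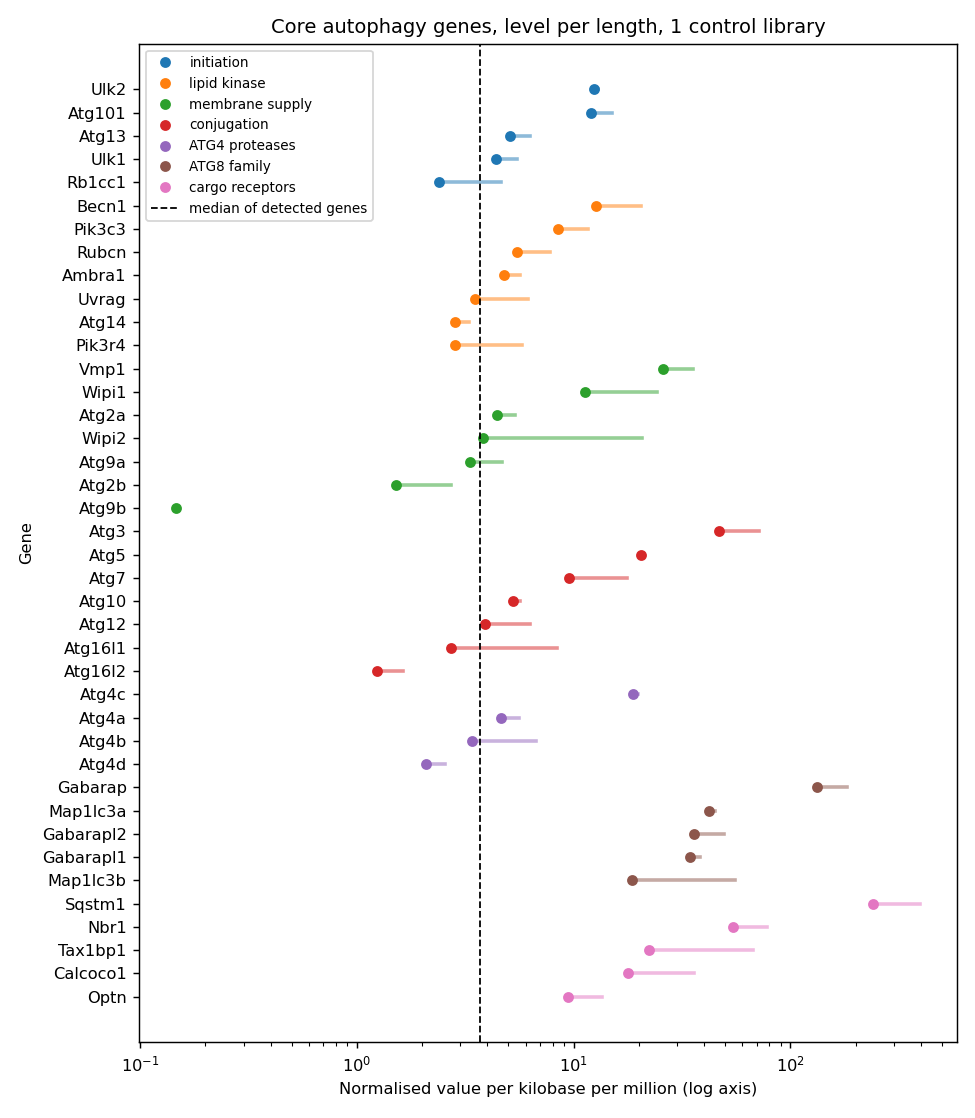
Length-scaled level of the 40 autophagy genes (x axis, normalised value per kilobase and per 1000000 of the summed counts, log axis), grouped and coloured by role. Points use all annotated exons, bars reach to the values with the longest and the principal transcript, and the dashed line is the median of detected genes on the exon scale (3.72). The ATG8 genes and cargo receptors lie to the right of the line throughout, and Atg9b stands alone at 0.147.

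Sorted by length-scaled level, the genes formed a nearly continuous series. Of the 39 pairs of neighbours in that order, 2 were 2-fold or more apart. The larger gap, 8.45-fold, separates Atg9b from the next gene. With 1 library, genes less than 2-fold apart are not put in order here, and 17 of the 40 genes lay within 2-fold of the median. The ATG8 family (median 35.7) and the cargo receptors (median 22.2) had the highest group medians on the length scale, while those of initiation, the lipid kinase complex, membrane supply, conjugation and the ATG4 proteases ran from 3.83 to 5.24.

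The initiation complex receives signals from the nutrient sensors mTORC1 and AMPK. Ulk2 had a normalised read count of 2044 and Ulk1 one of 784. These are the alternative protein kinases of the complex, and the length-scaled level of Ulk2 (12.4) was 2.83-fold that of Ulk1 (4.38), or 2.37-fold with the longest or principal transcript. The scaffold Rb1cc1 (FIP200), which holds the complex together, had a count of 970. Atg13, the adaptor that binds the kinase to the scaffold, had a count of 614. Atg101, the small partner that stabilises ATG13, had a count of 528. As counts these 3 genes lay within 2-fold of each other. The annotated exons of Rb1cc1 span 14690 bases and those of Atg101 1597 bases. The length-scaled level of Atg101 (11.99) was 2.35-fold that of Atg13 (5.10) and 5.01-fold that of Rb1cc1 (2.40), with 3.26-fold as the lowest value for the latter ratio under the other 2 lengths. Atg13 and Rb1cc1 are not ordered, since their ratio was 2.13 on the exon scale and 1.34 with the longest transcript. An annotated processed pseudogene, Gm13961, matches 1324 bases of Rb1cc1 at 95.6% identity. How reads that fit both were counted is not given in the sources used here.

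The class III phosphatidylinositol 3-kinase complex makes the lipid that marks the growing membrane. Its catalytic subunit Pik3c3 (VPS34) had a normalised read count of 1046 and its pseudokinase subunit Pik3r4 (VPS15) one of 755. Becn1 (Beclin 1), the regulatory core, had 2472. The length-scaled level of Becn1 (12.7) was 4.48-fold that of Pik3r4 (2.83) and 1.49-fold that of Pik3c3 (8.50), so the last pair is not ordered. Atg14 directs the complex to autophagosome formation and Uvrag directs it to endosomes. Atg14 had a normalised read count of 338 and Uvrag one of 876, but with length-scaled levels of 2.84 and 3.52 they lay within 2-fold under the 3 lengths. Uvrag also matches 6 other annotated genes over 342 to 345 bases at 95.03% to 95.64% identity, among them Txndc16 with a count of 1545, Mettl6 with 670 and Klhl20 with 359. Becn1 exceeded Atg14 by 4.47-fold to 6.25-fold over these lengths. Rubcn (Rubicon), which restrains the UVRAG complex, had a count of 1124 and a length-scaled level of 5.45. Ambra1, a Beclin 1 partner and ubiquitin ligase adaptor, had a count of 808 and a length-scaled level of 4.79.

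The value of Becn1 carries a limit of its own. Of its exon bases, 43.9% (3104 bases) lie opposite exons of Cntd1, which had a normalised read count of 423. The strand setting of the counting is not given in the sources used here, and without strand the reads of a gene and of its antisense partner cannot be told apart. In all, 16 of the 40 genes share exon positions with another annotated gene, 15 of them with a gene on the opposite strand, and 6 over more than 10% of their exon bases. Besides Becn1, these 6 are Atg9a (31.8%, with Gm29253 on the same strand), Gabarapl1 (28.3%, with 1700101I11Rik at a count of 45), Atg4d (19.3%, with Kri1 at 1275), Uvrag (17.6%, with Gm45187) and Sqstm1 (17.3%, with Mrnip at 71).

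Membrane supply brings lipid to the phagophore. Vmp1, an endoplasmic reticulum protein that moves lipid between membrane leaflets and is needed for the phagophore to detach, had the highest normalised read count of this group at 2742. Its length-scaled level (25.8) was 7.73-fold that of Atg9a (3.33), and 7.64-fold to 7.84-fold over the 3 lengths. The annotated exons of Vmp1 also contain the hairpin of the microRNA Mir21a on the same strand, 92 bases or 2.38% of its exons. Atg9a encodes the lipid scramblase that travels in vesicles in most tissues and had a count of 529. Its paralog Atg9b was the lowest of the 40 genes at a count of 16. Atg9a made up 95.8% of the length-scaled sum of this pair, and its level was 22.6-fold to 31.4-fold that of Atg9b. Exons of Atg9b overlap 294 bases of Nos3 on the opposite strand, which itself had a count of 31.

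The lipid transfer proteins Atg2a and Atg2b, which bridge the endoplasmic reticulum and the phagophore, had counts of 942 and 563. Atg2a was 2.93-fold higher on the exon scale (4.44 against 1.52) and 1.98-fold higher with the longest transcript, just under the limit for ordering the pair. Atg2b matches 8 other annotated genes over 344 to 984 bases at 95.3% to 97.7% identity, among them D10Wsu102e with a count of 430. Wipi1 and Wipi2 bind the lipid made by VPS34, and WIPI2 recruits ATG16L1. Their normalised read counts were 1370 and 1112. The length-scaled levels, 11.3 and 3.83, differed by 2.95-fold on the exon scale but by 1.18-fold with the principal transcript, because Wipi2 has 10543 bases of annotated exons and a principal transcript of 1959 bases. The Wipi pair is therefore not ordered.

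The conjugation enzymes work as in ubiquitin transfer. Atg7 is the shared activating enzyme (E1) and had a normalised read count of 1820. Atg3, the E2 enzyme that carries LC3 and GABARAP proteins, had 4056, and Atg10, the E2 enzyme that carries ATG12, had 248. The length-scaled level of Atg3 (46.6) was 8.91-fold that of Atg10 (5.24) and 4.92-fold that of Atg7 (9.47), and these ratios were 8.91-fold to 12.6-fold and 4.07-fold to 4.92-fold over the 3 lengths. Atg3 was thus the highest of the 7 conjugation genes both as a count and per length.

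ATG12 is joined to ATG5, and the product binds ATG16L1 to place LC3 on the membrane. Atg5 had a count of 1320 and a length-scaled level of 20.4. Atg12 had a count of 830 and a length-scaled level of 3.90, 0.192 times that of Atg5 on the exon scale and 0.310 times with the longest transcript. The partners of this conjugate therefore differed by more than 2-fold under each length used. Atg16l1 had a count of 723 and a length-scaled level of 2.72. Its paralog Atg16l2, which is not known to replace it in starvation-induced autophagy, had a count of 290 and a length-scaled level of 1.24. The ratio of Atg16l1 to Atg16l2 was 2.19 on the exon scale and 5.14 with the principal transcript.

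The ATG4 proteases cut ATG8 proteins before conjugation and release them again from the membrane. Atg4c had a normalised read count of 1737, Atg4b 772, Atg4d 417 and Atg4a 338. Atg4b encodes the enzyme known as the broadest and most active on LC3, yet Atg4c held 65.1% of the length-scaled sum of the 4 genes. The length-scaled level of Atg4c was 18.8, against 4.61 for Atg4a, 3.38 for Atg4b and 2.08 for Atg4d. Atg4c stayed 2.95-fold or more above the next gene under the 3 lengths. With the shortest annotated coding transcript, often a fragment of the coding region, Atg4b came first at 2.95-fold over Atg4c. The value of Atg4a is uncertain for another reason, since the gene Atg4a-ps, annotated as protein coding, shares 2115 bases with it at 99.3% identity and Syt6 (count 112) shares 508 bases at 99.4%.

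**Figure D2:**
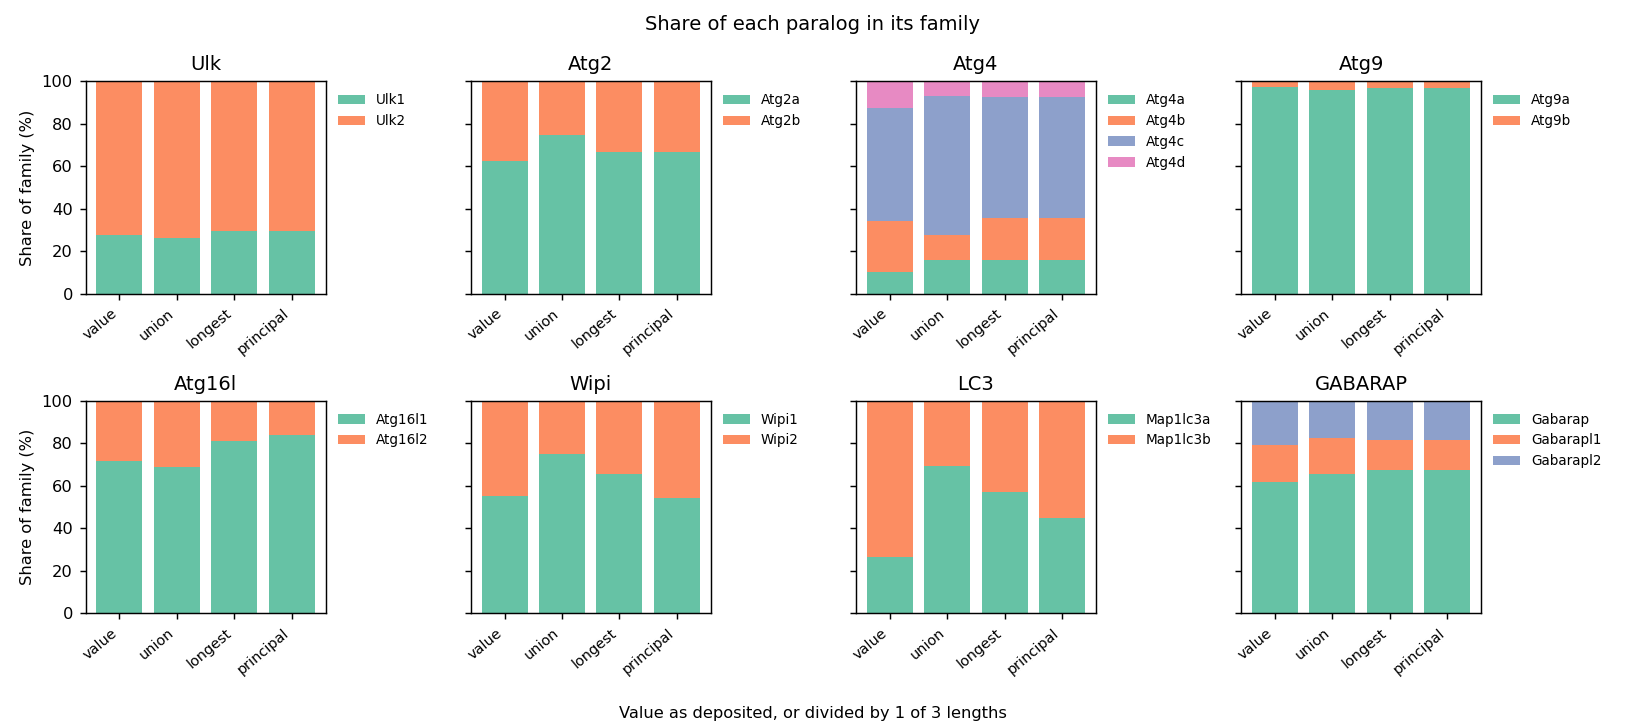
Share of each paralog in the sum of its family (y axis, percent), from the counts as deposited and after division by the length of all exons, of the longest transcript or of the principal transcript (x axis). Ulk2, Atg2a, Atg4c, Atg9a, Atg16l1, Wipi1 and Gabarap take the largest share in each bar of their family, whereas the LC3 pair changes order between bars.

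All 5 ATG8 genes lay above the median of detected genes as counts and per length. Gabarap had a normalised read count of 6765, Map1lc3b 3870, Gabarapl2 2291, Gabarapl1 1913 and Map1lc3a 1377. The GABARAP genes encode the branch also known for tethering the ULK complex and for late steps of autophagosome closure. Within it Gabarap held 65.5% of the length-scaled sum. Its length-scaled level (133) was 3.72-fold that of Gabarapl2 (35.7) and 3.86-fold that of Gabarapl1 (34.5), and Gabarap stayed 3.67-fold or more above the next gene under the 3 lengths.

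The LC3 pair could not be ordered. As counts, Map1lc3b was 2.81-fold above Map1lc3a, while the length-scaled level of Map1lc3a (42.3) was 2.26-fold that of Map1lc3b (18.7). The difference shrank to 1.32-fold with the longest transcript, and with the principal transcript Map1lc3b was higher by 1.23-fold (55.4 against 44.9). With the shortest coding transcript it was higher by 4.08-fold. The annotated exons of Map1lc3b add up to 7517 bases and its principal transcript to 2532, whereas for Map1lc3a these lengths are 1181 and 1112. Map1lc3b also matches 4 annotated processed pseudogenes over 360 to 378 bases at 96.5% to 99.7% identity, and Gabarapl2 matches 3 over 349 to 352 bases at 96.6% to 99.4%. Gabarap, by contrast, had no such match of 300 bases or more at 95% identity, and it exceeded Map1lc3b by 3.28-fold to 7.13-fold and Map1lc3a by 3.15-fold to 4.04-fold over the 3 lengths.

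The cargo receptors held 46.8% of the summed counts of the 40 genes. Sqstm1 encodes p62, which gathers ubiquitinated proteins into condensates and is itself degraded by autophagy. It lies on chromosome 11 (50199366 to 50210827, minus strand, GRCm38) and ranked 123 among all rows with a normalised read count of 22302. Its length-scaled level of 241 exceeded those of 98.6% of detected genes. Nbr1, a p62 partner that binds ubiquitinated cargo, lies on chromosome 11 (101552149 to 101581951, plus strand) and ranked 367 with a count of 10338 and a length-scaled level of 54.6. Sqstm1 exceeded Nbr1 by 3.87-fold to 5.07-fold over the 3 lengths.

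Tax1bp1, a receptor for aggregates that NBR1 recruits, had a count of 6103 and a length-scaled level of 22.2. Calcoco1, a receptor for endoplasmic reticulum and Golgi, had 2803 and 17.7. The ratio of Tax1bp1 to Calcoco1 stayed under 2-fold at each length, so this pair is not ordered. Optn (optineurin), a receptor for damaged mitochondria and bacteria, had the lowest count of the group at 970 and the lowest length-scaled level at 9.37. Sqstm1 exceeded Optn by 22.5-fold to 29.5-fold, Nbr1 did so by 5.82-fold and Tax1bp1 by 2.36-fold to 5.01-fold. Of the genes whose sites are printed above, Sqstm1 was the highest receptor and Gabarap the highest ATG8 gene. The length-scaled level of Sqstm1 was 1.81-fold that of Gabarap. Over the 3 lengths this ratio was 1.67-fold to 2.19-fold, so the pair is not ordered per length. As counts the ratio was 3.30.

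**Figure D3:**
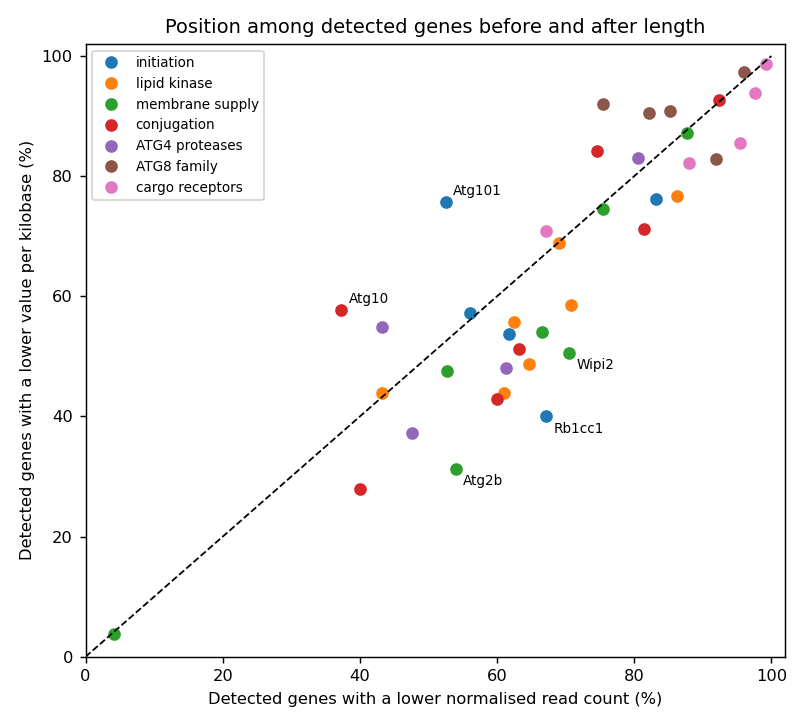
Percent of detected genes with a lower normalised read count (x axis) and with a lower value per kilobase (y axis) for each of the 40 genes, coloured by role. Genes under the dashed line of equality stand lower once length is taken into account, and the 5 labelled genes moved by more than 18 percentage points, Atg101 and Atg10 upwards and Rb1cc1, Atg2b and Wipi2 downwards.

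A wider list of 66 other autophagy genes, fixed by name, gives the setting of the core genes. A row was found for 65 of them, and the exception was Map1lc3c. The median normalised read count of these 65 was 1340 and their median length-scaled level 9.95, and 53 of 65 lay above the median of detected genes by count. Other phagophore genes had a median count of 981, led by the membrane-curving Sh3glb1 (Bif-1) at 10280, Tecpr1 at 1846 and the lipid-binding Wdr45b at 1501, with Wdr45 the lowest at 342. Other selective receptors had a median of 2359. The endoplasmic reticulum receptor Sec62 stood at 9751, the mitochondrial receptors Fkbp8 at 5948 and Bnip3l at 4225, and the lowest was Calcoco2 at 21. Genes for fusion with the lysosome had a median of 2052, with the lysosomal membrane proteins Lamp1 at 35706 and Lamp2 at 8445, the small GTPase Rab7 at 16384 and the autophagosomal SNARE Stx17 the lowest at 571.

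The regulators of autophagy made up the other lists. The 21 nutrient-sensing genes had a median normalised read count of 1090, led by Rragc at 3981, Rheb at 2979 and Lamtor1 at 2565, all of which serve mTORC1 at the lysosome, and the AMPK subunit Prkaa2 was the lowest at 51. The 8 transcription factors had a median of 404, the only one of these groups below the median of detected genes. Tfe3 (2541), Tfeb (1159) and Mitf (684), which drive lysosomal and autophagy genes, were the highest and their relative Tfec (96) the lowest. The FoxO factors, which SGK1 is known to phosphorylate, had counts of 368 for Foxo1, 335 for Foxo3 and 368 for Foxo4.

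**Figure D4:**
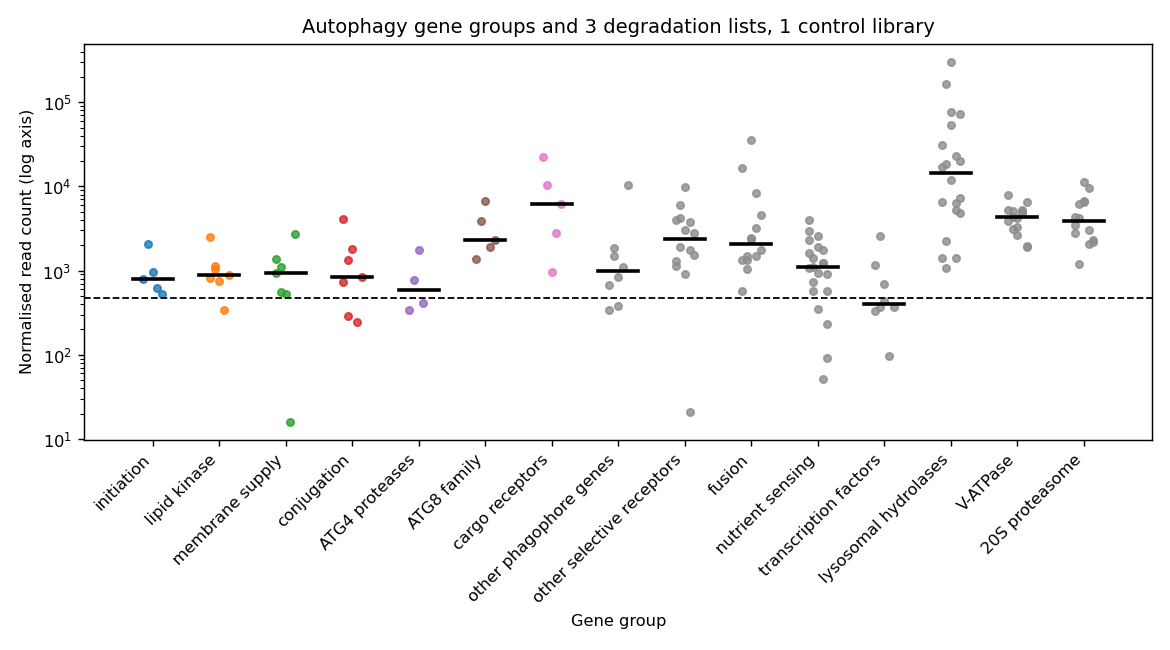
Normalised read count (y axis, log axis) of each gene in the 7 groups of core autophagy genes (coloured), 5 lists of other autophagy genes and 3 lists of other degradation genes (grey). Short lines mark group medians and the dashed line is the median of detected genes (469). The cargo receptors have the highest median of the coloured groups and the lysosomal hydrolases the highest of all.

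Compared with other routes and stages of degradation, the core genes stood lower on the length scale. The 20 lysosomal hydrolases had a median length-scaled level of 93.5, the 14 subunits of the 20S proteasome one of 57.5 and the 15 subunits of the V-ATPase, the pump that acidifies lysosomes, one of 38.8. The hydrolases held 3.003% of all summed counts, with the cathepsins Ctsd at 300496 and Ctsb at 164610, the saposin precursor Psap at 76675 and the galactosidase Glb1 the lowest at 1067. The V-ATPase list was led by Atp6v0c at 7966, Atp6v1e1 at 6458 and Atp6v1f at 5313, with Atp6ap2 the lowest at 1918. The proteasome list was led by Psma3 at 11373, Psma4 at 9508 and Psmb6 at 6648, with Psmb5 the lowest at 1193. Among the core groups, the ATG8 median of 35.7 per length was the nearest to that of the V-ATPase.

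The promoters were read because the members share a pathway that TFEB and TFE3 are known to drive through E-box sequences. RefSeq promoters (GRCm38.p6, 250 bases before to 50 bases after the start) were matched for 34 of the 40 genes, the other 6 being Atg12, Atg16l1, Becn1, Map1lc3a, Pik3c3 and Rb1cc1. The palindrome CACGTG (the same on both strands) was found in 5 of 34 genes (14.7%) and in 8.09% of all genes with a promoter. Its extended form TCACGTGA, which contains it, was found in Atg3 (1 of 34, 2.94%, against 1.12%). The FoxO-type motif GTAAACA, searched on both strands, was found in 0 of 34 genes and in 4.05% of all genes with a promoter. The 30 bases around each E-box are shown with the motif in capitals, each 5′ to 3′ on the strand of the gene. Distances are from the RefSeq start, which can differ from the GENCODE M21 gene start. The boxes of Atg7, Atg14 and Rubcn lie inside the GENCODE gene. That gene begins at 114643097 for Atg7 (plus strand), 47570649 for Atg14 (minus strand) and 32877766 for Rubcn (minus strand).
Atg3 at chr16:45158723-45158752, plus strand, 94 bases before the start: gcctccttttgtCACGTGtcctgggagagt
Atg3 at chr16:45158746-45158775, plus strand, 71 bases before the start: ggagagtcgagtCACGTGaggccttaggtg
Atg5 at chr10:44268313-44268342, plus strand, 14 bases before the start: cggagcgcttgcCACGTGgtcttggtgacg
Atg7 at chr6:114670952-114670981, plus strand, 132 bases before the start: catattggtggtCACGTGtgcagtaagtga
Atg14 at chr14:47568418-47568447, minus strand, 1 base before the start: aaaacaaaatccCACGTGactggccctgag
Rubcn at chr16:32868437-32868466, minus strand, 88 bases before the start: cgcctagcacatCACGTGtacccaggttag
Of the 5 genes, Atg3, Atg5 and Atg7 belong to the conjugation group and Atg14 and Rubcn to the lipid kinase group, and their normalised read counts ran from 338 (Atg14) to 4056 (Atg3). A match describes these letters and is no measurement of binding.

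A head-to-head partner was a coding gene that starts within 1000 bases upstream of a gene and runs the opposite way. Pairs whose starts overlap were not counted. By this rule 7 of the 40 genes (17.5%) had a partner, against 6.78% of 21951 coding genes in GENCODE M21. The 7 genes are Atg12, Atg13, Atg3, Atg4a, Nbr1, Sqstm1 and Vmp1. The closest of these pairs is Sqstm1 with Mgat4b, 63 bases apart, with normalised read counts of 22302 and 2436. Atg3 lies 79 bases from Slc35a5, which had a count of 328. The partner had the higher count for 3 of the 7 genes. These were Nbr1 (10338, against 13289 for Brca1, 194 bases away), Atg12 (830, against 3242 for Ap3s1) and Atg4a (338, against 979 for Psmd10).

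The label of mixed glia was set beside marker genes. Median normalised read counts were 3786 for 6 astrocyte markers and 7101 for 6 microglia markers, with Gfap at 17222 and Aif1 (IBA1) at 3642. They were 475 for 6 oligodendrocyte lineage markers, 12692 for 4 mesenchymal markers (highest Acta2 at 26499, lowest Pdgfrb at 1150), 20 for 5 neuron markers (Slc17a6 at 0, Syt1 at 6) and 38 for 4 endothelial markers (Cldn5 at 3). The share of each cell type in the values of the autophagy genes was not tested, and in a bulk library fewer cells of a type and less RNA per cell cannot be told apart.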

How the data were processed

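One RNA-seq library of VM-derived mixed glia was used, made with a SMARTer mRNA-Seq kit from Trizol-extracted total RNA. The authors deposited 1 score per gene symbol, a read count per gene that they normalised before deposit and that the study calls a normalised read count. Its scaling is not given in the sources used here, so it was not handled as raw counts and no count model was run. Per the methods of the study, the authors trimmed bases under quality 20, aligned reads to GRCm38/mm10 with STAR and counted genes of RefSeq release 105 with HTSeq-count, from which they also calculated FPKM. The deposited values are whole numbers and are called read counts, not FPKM. The submitters' processing notes, also from the authors, name TopHat, edgeR and mm10 instead. Versions, strand setting and treatment of multi-mapping reads are not given in the sources used here. These steps bear on antisense partners, near-identical copies and retrocopies of a gene.

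The deposited values summed to 27569507, with 5075 of 23282 rows at 0. The sequencing depth is unknown, so no interval or floor is given. Exon, longest, principal (APPRIS tag) and shortest coding lengths came from GENCODE M21 (22857 rows matched, 98.2%). Near-identical sequence meant 95% identity or more over at least 300 bases (BLAST 2.17.0). Python 3.11.15 with numpy 2.4.6, pandas 2.3.3, scipy 1.17.1, Biopython 1.88 and matplotlib 3.10.9 was used, and the scripts were tested on simulated data.

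All 40 genes are named with their values, as are the 3 highest and the lowest of each other list, listed genes under 10, and genes that share exons or sequence with a member, the few matches that touch a result in full and the rest as counts. Marker lists are given by their medians and extremes. Aif1 and the FoxO genes were named outside this rule after their values were seen. The members and lists were chosen with earlier results of these data known. Alternatives were other lengths, minimum values, denominators, fold limits, pseudocounts and current symbols only. The library is the only one, so no groups were compared and no replicate could be left out. One sequence is not reported here.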

Additional observations from a re-analysis of the deposited data

How the results depend on the processing

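Of 32 alternative settings over 6 results, 26 gave a value within 1.5 times the reported one. The number of detected genes was 39 or 40 in each, the share of summed counts ran from 0.249% (without Sqstm1) to 0.381%, and the number above the detected median from 25 to 37. The 6 others all concern length or the fold limit. The median length-scaled level of the 40 genes was 33.8 with the shortest coding transcript and 12.3 with the principal transcript, against 6.97 with all exons. The number of the 8 paralog families whose highest gene was 2-fold or more above the next fell from 8 with all exons to 5 with the longest transcript, 5 with the shortest coding transcript and 5 with the principal transcript, and to 3 at a limit of 3-fold. Divisors shorter than the exon sum raise levels by construction, and the shortest coding transcripts include fragments. The principal transcript, the shortest coding transcript for families, current symbols only and the exclusion of Sqstm1 were among 12 alternatives chosen after seeing the data. No paired analysis was possible because there is 1 library. Depth is unknown, so how far low values such as that of Atg9b can be read is not known.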
